A study of Mus musculus with 6 samples.

Results

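The transcription factor gene *Atf4*, its stress targets and the genes of serine synthesis were followed in astrocytes of mice given quinpirole, an agonist of the dopamine D2 receptor (DRD2). The 10 genes were taken by name: *Atf4*, *Ddit3*, *Trib3*, *Asns*, *Chac1*, *Phgdh*, *Psat1*, *Psph*, *Shmt2* and *Mthfd2*. All 10 had a row among the 17193 genes listed for every library, and 9 of them were among the 12255 genes tested. *Trib3* lay below the level that was set for testing, a mean of 1 FPKM over the libraries. FPKM, is the number of fragments scaled to transcript length and library size, so levels of different genes can be set side by side.

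The astrocytes were pulled from dissociated brains with magnetic beads against ACSA-2, a surface epitope carried by the sodium pump subunit that *Atp1b2* encodes. All mice were wild-type C57BL/6 animals of 3 months. The Mock group, whose columns the study's own table heads as saline, and the Quinpirole group held 3 libraries each, and dose and duration of the treatment are not given for these mice in the sources used here. The comparison served to find genes that respond to DRD2 activation in vivo. Nothing in the labels ties the libraries to separate mice, so the p-values below measure only the spread between these 6 libraries, which may in part be technical.

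Cells that run short of amino acids, misfold proteins in the endoplasmic reticulum or lack heme phosphorylate the initiation factor eIF2 alpha. General translation then slows while the *Atf4* mRNA, which carries upstream reading frames, is translated more, so the mRNA level of *Atf4* alone does not report how much protein is made. ATF4 pairs with C/EBP proteins on composite DNA elements and switches on genes for amino acid uptake, amino acid synthesis and tRNA charging. In the brain astrocytes are the main site of serine synthesis from glucose and supply neurons with L-serine. Serine feeds glycine, folate one-carbon units and, through cysteine, glutathione.

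*Phgdh*, the enzyme that opens serine synthesis, was the only one of the 9 tested genes to pass the test, and it was higher after quinpirole by a ratio of group means of 1.15. The remaining genes did not pass: *Atf4* was 1.08 times the Mock mean, *Asns* 1.12 times, *Psat1* 1.02 times, and the stress genes *Ddit3* and *Chac1* 1.02 and 0.973 times. The test was limma on log2(FPKM + 1) over all 12255 genes, with p-values adjusted by the Benjamini-Hochberg method and a threshold of 0.05. In this fit 10.9% of all tested genes passed, 5.74% higher and 5.18% lower in Quinpirole, so that 1 gene of 9 is close to the share of all genes and is no result about the 10 genes as a set. The mean was higher in Quinpirole for 8 of the 9 genes, against 53.8% of all genes, and the median log2 fold change was 0.08, against 0.02 over all genes. All 3 Quinpirole libraries lay above all 3 Mock libraries for *Atf4*, *Phgdh* and *Shmt2*, that is 3 of 9, where the same held for 20.0% of all genes tested. None of the 9 lay below in this way, where 2070 of the 12255 genes did. At an unadjusted p under 0.05 there were 2 genes, *Phgdh* and *Atf4*.

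The 10 genes covered a wide span of levels. *Phgdh* was highest, with 134.3 to 163.7 FPKM over the 6 libraries and more than 96.6% of all tested genes below its mean. It was followed by *Atf4* at 84.9 to 98.7 FPKM and *Psat1* at 64.3 to 73.0 FPKM. The middle of the order was held by *Ddit3* at 22.5 to 27.7 FPKM, *Shmt2* at 19.1 to 21.4 FPKM, *Psph* at 18.2 to 20.4 FPKM and *Asns* at 10.9 to 13.5 FPKM. Below them stood *Mthfd2* at 7.27 to 9.50 FPKM, *Chac1* at 1.89 to 3.56 FPKM and *Trib3* at 0.401 to 0.869 FPKM. Neighbours in this order did not overlap in any library, except *Shmt2* and *Psph*, whose ranges did. The first and second enzymes of serine synthesis thus stood well above the third, and the stress genes *Chac1* and *Trib3* stood last.

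**Figure D1:**
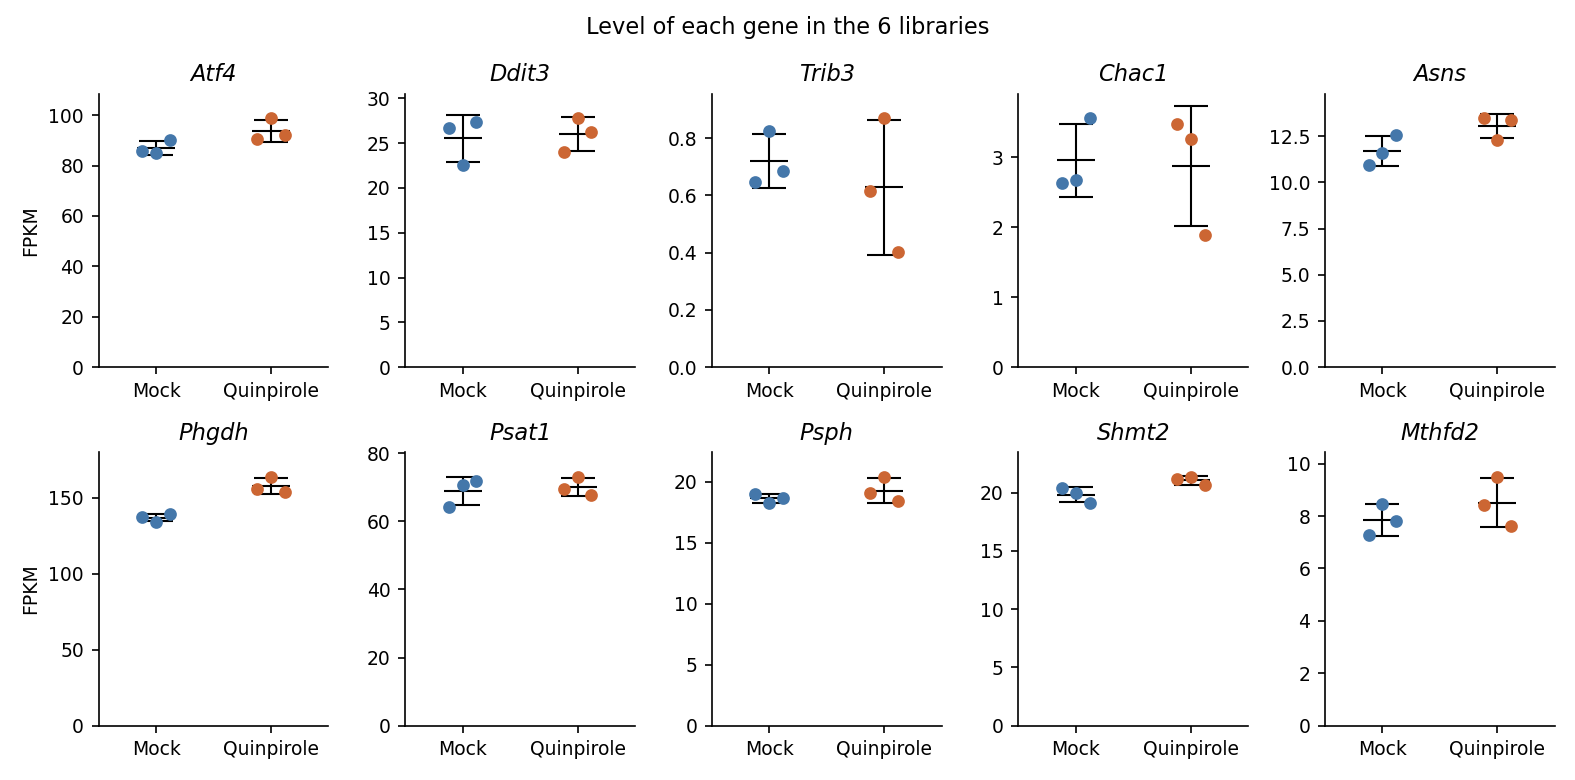
Level in FPKM (vertical axes, each starting at 0) of each of the 10 genes in the 3 Mock (blue) and 3 Quinpirole (orange) libraries; points are libraries, the bar is the group mean and the whiskers are 1 SD. The groups stand apart for *Atf4*, *Phgdh* and *Shmt2*, and *Trib3* and *Chac1* spread widest, with 1 low Quinpirole library in each.

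The transcription factors came first in the pathway. *Atf4* (ENSMUSG00000042406; GRCm38 chr15:80255184-80257541, plus strand) was at 85.9, 84.9 and 90.0 FPKM in Mock 1, 2 and 3 and at 90.5, 98.7 and 92.3 FPKM in Quinpirole 1, 2 and 3. The lowest Quinpirole library was only just above the highest Mock library, so the groups touched without overlapping. The means were 86.9 ± 2.71 and 93.8 ± 4.32 FPKM (SD, n = 3 each), a log2 fold change of 0.11 (SE 0.04, 95% interval 0.00 to 0.21) with a limma adjusted p of 0.149. *Ddit3* (ENSMUSG00000025408; chr10:127290774-127296288, plus strand) encodes CHOP, a C/EBP relative that ATF4 induces and that promotes cell death when stress persists. It was at 26.7, 22.5 and 27.3 FPKM in Mock and at 24.0, 27.7 and 26.3 FPKM in Quinpirole. The groups overlapped throughout, with a log2 fold change of 0.03 (SE 0.08, 95% interval -0.17 to 0.22, limma adjusted p = 0.837). The interval corresponds to a ratio between 0.892 and 1.17. The *Ddit3* exons share 68 bases with *Mars* on the opposite strand, and 6.1% of its longest transcript is also annotated under another *Ddit3* identifier without a row.

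*Trib3* and *Chac1* are sensitive reporters of ATF4 and CHOP activity and were close to the lower end of the measured range. *Trib3* (ENSMUSG00000032715; chr2:152337422-152344032, minus strand), a pseudokinase that feeds back on ATF4, was at 0.648, 0.826 and 0.684 FPKM in Mock and at 0.614, 0.869 and 0.401 FPKM in Quinpirole. Its highest and its lowest library were both Quinpirole libraries. The library sizes estimated from the files put these levels at 19 to 48 fragments, for which counting alone gives an error of 22.9% to 14.4%, so a moderate change of *Trib3* was not detectable at this depth. Tested without the filter on low values, it had a log2 fold change of -0.09 (SE 0.11, 95% interval -0.34 to 0.17, limma adjusted p = 0.671). *Chac1* (ENSMUSG00000027313; chr2:119351229-119354381, plus strand) degrades glutathione from its gamma-glutamyl end. It was at 2.63, 2.67 and 3.56 FPKM in Mock and at 3.48, 3.26 and 1.89 FPKM in Quinpirole, so the lowest library and the one next to the highest were both in Quinpirole. The log2 fold change was -0.05 (SE 0.18, 95% interval -0.46 to 0.36, limma adjusted p = 0.876), the widest interval of the 9 genes. Its sign rested on Quinpirole 3: without that library the log2 fold change was 0.15, and without Mock 3 it was 0.06, and neither passed the test.

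*Asns* (ENSMUSG00000029752; chr6:7675169-7693254, minus strand) makes asparagine and is a textbook ATF4 target. It was at 10.9, 11.6 and 12.6 FPKM in Mock and at 13.5, 12.3 and 13.4 FPKM in Quinpirole. Only Mock 3 and Quinpirole 2 crossed. The means were 11.7 ± 0.817 and 13.0 ± 0.638 FPKM (SD, n = 3 each), a log2 fold change of 0.15 (SE 0.06, 95% interval -0.00 to 0.29) with an unadjusted p of 0.0527 and a limma adjusted p of 0.164.

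The RefSeq windows from 250 bases before to 50 bases after the transcription start were read for the core of the C/EBP-ATF response element, the composite site of ATF4 and C/EBP dimers. The letters searched were TGATGNAA on either strand, so that TTNCATCA is the same element read backwards. All 10 genes had a window, and 3 of them, *Trib3*, *Chac1* and *Asns*, held a match, where 4.51% of all 27025 genes with a window did. These 3 windows are shown because they carry the match, in capitals, and the window of *Phgdh* because this gene alone passed the test. Each is written 5′ to 3′ on the strand of its gene, on GRCm38.p6.
Trib3 (chr2:152344011-152344310, minus strand): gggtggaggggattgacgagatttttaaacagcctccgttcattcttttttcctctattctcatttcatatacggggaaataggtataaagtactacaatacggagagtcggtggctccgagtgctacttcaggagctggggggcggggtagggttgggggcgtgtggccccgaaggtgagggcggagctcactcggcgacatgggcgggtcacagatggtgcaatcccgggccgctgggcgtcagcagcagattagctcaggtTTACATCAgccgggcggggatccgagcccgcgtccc
Chac1 (chr2:119350992-119351291, plus strand): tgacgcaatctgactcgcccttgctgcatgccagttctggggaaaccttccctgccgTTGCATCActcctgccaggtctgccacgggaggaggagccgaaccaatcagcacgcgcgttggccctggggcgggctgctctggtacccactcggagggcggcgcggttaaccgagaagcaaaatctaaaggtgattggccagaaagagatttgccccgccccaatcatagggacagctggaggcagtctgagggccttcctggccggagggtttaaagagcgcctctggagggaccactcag
Asns (chr6:7693160-7693459, minus strand): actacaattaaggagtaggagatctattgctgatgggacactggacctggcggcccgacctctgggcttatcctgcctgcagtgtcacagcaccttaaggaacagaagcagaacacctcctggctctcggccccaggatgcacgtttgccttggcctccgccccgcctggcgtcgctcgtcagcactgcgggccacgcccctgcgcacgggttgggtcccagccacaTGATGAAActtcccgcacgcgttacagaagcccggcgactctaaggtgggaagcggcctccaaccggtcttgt
Phgdh (chr3:98339920-98340219, minus strand): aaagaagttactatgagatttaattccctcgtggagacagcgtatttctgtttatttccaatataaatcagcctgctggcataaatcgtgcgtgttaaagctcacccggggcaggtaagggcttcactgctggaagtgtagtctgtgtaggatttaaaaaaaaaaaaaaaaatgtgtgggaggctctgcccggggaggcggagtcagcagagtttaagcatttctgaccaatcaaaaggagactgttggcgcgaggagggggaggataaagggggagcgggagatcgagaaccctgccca
The match began 14 bases after the start in *Trib3*, at -193 in *Chac1* and at -23 in *Asns*, in the reverse reading for the former pair and forward in *Asns*. A match is only a description of the letters. Of the 3 genes with a match, *Trib3* was below the level for testing, and *Chac1* and *Asns* did not pass. The *Phgdh* window holds no match.

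Serine synthesis draws 3-phosphoglycerate out of glycolysis in 3 steps. *Phgdh* (ENSMUSG00000053398; chr3:98313170-98339990, minus strand), phosphoglycerate dehydrogenase, carries out the first and committed step. It was at 137.3, 134.3 and 139.0 FPKM in Mock and at 155.5, 163.7 and 153.4 FPKM in Quinpirole. The gap between the groups was wider than the spread within either of them. *Phgdh* rose from 137 ± 2.41 to 158 ± 5.43 FPKM (SD, n = 3 each), a log2 fold change of 0.20 (SE 0.04, 95% interval 0.11 to 0.29, limma adjusted p = 0.0266). The interval corresponds to a ratio between 1.08 and 1.22.

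The call on *Phgdh* was close to the threshold. Leaving out 1 library in turn kept the log2 fold change between 0.17 and 0.22, but the adjusted p passed only without Mock 3 (0.0386). It was 0.0779 without Mock 1, 0.103 without Mock 2, 0.0657 without Quinpirole 1, 0.0807 without Quinpirole 2 and 0.0535 without Quinpirole 3. Much of the *Phgdh* transcript also has copies in the genome: 63.1% of the 50-base words of its longest transcript occur in transcripts of 23 other genes, 20 of them pseudogenes, with 50.6% in *Gm7901* alone. None of the 23 has a row, and how the authors' counting shared such reads is not given in the sources used here.

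The next enzymes of the same path did not pass. *Psat1* (ENSMUSG00000024640; chr19:15904678-15947337, minus strand), the aminotransferase of the second step, was at 64.3, 70.5 and 71.8 FPKM in Mock and at 69.5, 73.0 and 67.7 FPKM in Quinpirole. The groups overlapped, with a log2 fold change of 0.03 (SE 0.05, 95% interval -0.10 to 0.15, limma adjusted p = 0.764). *Psph* (ENSMUSG00000029446; chr5:129765558-129787449, minus strand), the phosphatase that releases free serine, was at 18.9, 18.2 and 18.7 FPKM in Mock and at 19.0, 20.4 and 18.4 FPKM in Quinpirole. Its groups overlapped too, with a log2 fold change of 0.05 (SE 0.05, 95% interval -0.07 to 0.16, limma adjusted p = 0.562). *Psph* shares 452 exonic bases, 10.4% of its exonic length, with *Cct6a* on the opposite strand, which stood at 58.9 to 69.4 FPKM. The library kit is not stated to keep strand, so reads from the shared part cannot be assigned to either gene.

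Within a library the first enzyme could be set against the second, which removes the library's size from the comparison. The ratio of *Phgdh* to *Psat1* was 2.14, 1.90 and 1.94 in Mock and 2.24, 2.24 and 2.27 in Quinpirole. The groups stood apart, and the log2 ratio differed by 0.18. It was 1 of 8 such ratios between pathway neighbours, all chosen after the values were seen, and the other 7 overlapped between the groups. In the exact two-sided permutation test it reached p = 0.1, the smallest value that 3 against 3 libraries allow, and 0.8 after adjustment over the 8 ratios.

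Serine is split in mitochondria into glycine and a one-carbon unit by SHMT2, and MTHFD2 oxidizes that unit further towards formate. *Shmt2* (ENSMUSG00000025403; chr10:127517123-127522444, minus strand) was at 20.4, 20.0 and 19.1 FPKM in Mock and at 21.2, 21.4 and 20.6 FPKM in Quinpirole. The groups stood apart by a small margin, with means of 19.8 ± 0.636 and 21.1 ± 0.393 FPKM (SD, n = 3 each). The log2 fold change of *Shmt2* was 0.08 (SE 0.04, 95% interval -0.02 to 0.18, limma adjusted p = 0.23). *Mthfd2* (ENSMUSG00000005667; chr6:83305691-83325908, minus strand) was at 7.27, 8.46 and 7.82 FPKM in Mock and at 8.43, 9.50 and 7.62 FPKM in Quinpirole. Its groups overlapped, with a log2 fold change of 0.10 (SE 0.09, 95% interval -0.10 to 0.30, limma adjusted p = 0.455). The intervals correspond to ratios of 0.988 to 1.13 for *Shmt2* and 0.933 to 1.23 for *Mthfd2*.

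**Figure D2:**
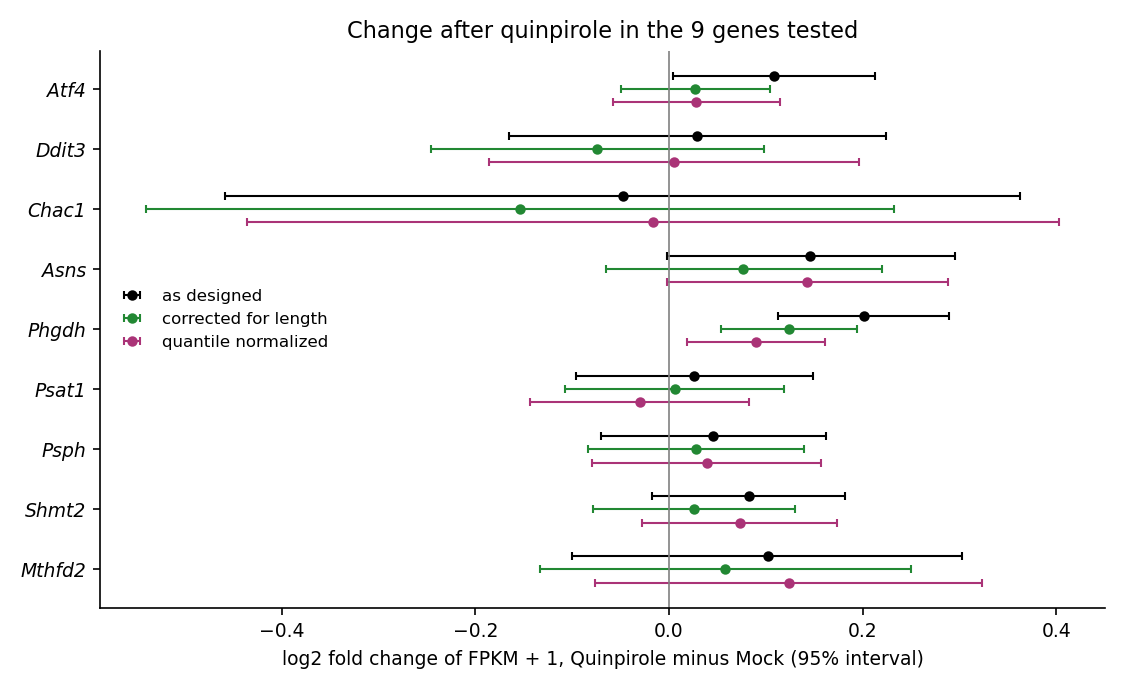
Log2 fold change of FPKM + 1 between Quinpirole and Mock (horizontal axis) with its 95% interval for the 9 tested genes, as tested (black), after a correction for gene length (green) and after quantile normalization (purple), from 3 libraries per group. The *Phgdh* intervals lie to the right of 0 in all 3 versions although only the first passes the adjusted threshold, and the *Chac1* intervals are the widest.

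Over all genes the change moved with gene length in these libraries, and the 9 tested genes are on the short side. Over 12223 genes with an exonic length, the log2 fold change fell with length (Spearman rho = -0.475, a description across genes). With the genes cut by length into 5 groups of like number, the shortest, of up to 2514 nucleotides, had a median log2 fold change of 0.116 and holds *Atf4*, *Ddit3*, *Chac1* and *Phgdh*. The median was 0.062 in the next group, which holds *Asns*, *Shmt2* and *Mthfd2*, and 0.016 in the middle group with *Psat1* and *Psph*. The groups of longer genes had -0.034 and -0.107.

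With each library corrected for its trend on length, 4.38% of genes passed and none of the 9 did. *Phgdh* then had a log2 fold change of 0.12 (limma adjusted p = 0.0603), with corrected log2 levels of 7.173, 7.128 and 7.136 in Mock and 7.268, 7.299 and 7.241 in Quinpirole, still apart. *Atf4* and *Shmt2* came down to 0.03 each and their corrected groups overlapped. *Asns* was at 0.08, *Mthfd2* at 0.06, *Psph* at 0.03 and *Psat1* at 0.01. The stress genes *Ddit3* and *Chac1* were below 0, at -0.07 and -0.15. Quantile normalization gave *Phgdh* 0.09 with a limma adjusted p of 0.104.

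**Figure D3:**
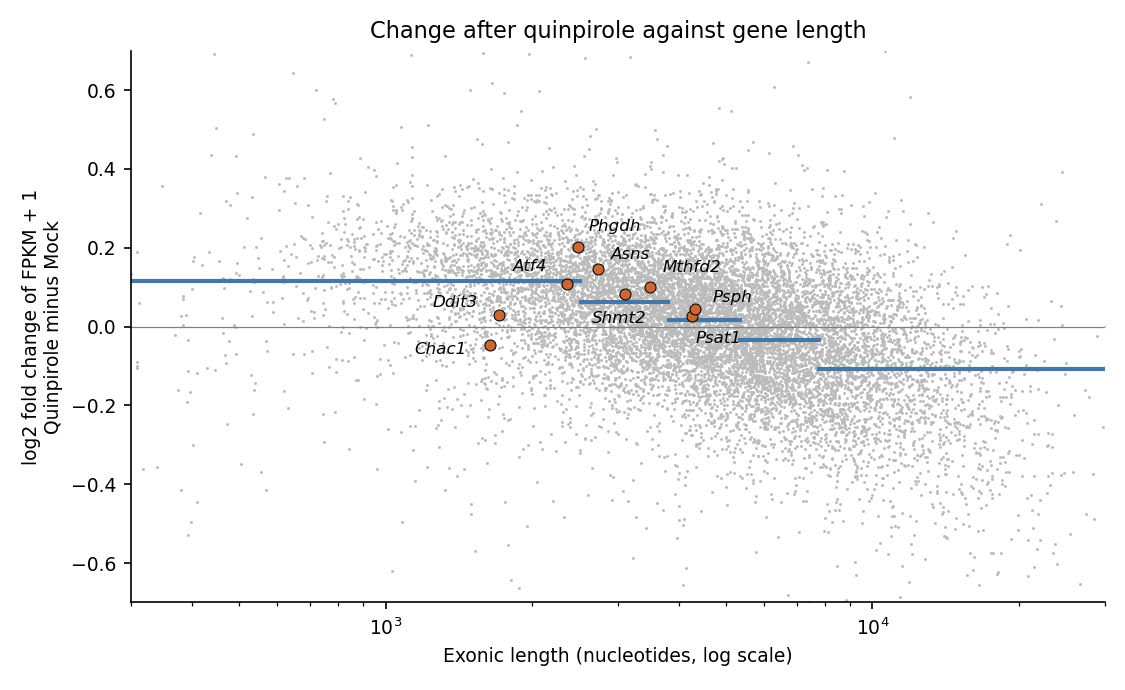
Log2 fold change of FPKM + 1 between Quinpirole and Mock (vertical axis) against exonic length in nucleotides (log scale) for 12223 tested genes (grey; genes beyond the axes are not drawn), with the 9 pathway genes in orange and the median of each of 5 length groups as a blue line. The blue medians step down from 0.116 to -0.107, *Phgdh* lies above the line of its group, *Atf4* lies close to it, and *Ddit3* and *Chac1* lie below it.

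Some genes followed the 2 leading members closely across the 6 libraries. On log2(FPKM + 1), the highest Pearson correlations with *Atf4* were those of *Cfap36* (0.999), *Srsf3* (0.998) and *Sdhb* (0.995), and those with *Phgdh* were of *Bola2*, *Suclg1* and *Psma3* (0.997 each). These correlations are a description over 3 Mock and 3 Quinpirole libraries, so a difference between the groups enters them. *Bola2*, *Suclg1* and *Psma3* themselves passed the test as higher (limma adjusted p = 0.0278, 0.0322 and 0.0251). As many as 203 genes exceeded 0.95 with *Atf4* and 426 with *Phgdh*. Between the pair itself the correlation was 0.91, whereas *Atf4* had 0.59 with *Ddit3*, 0.52 with *Asns* and 0.18 with *Chac1*. The correlation of *Atf4* was 0.76 with *Psph*, 0.61 with *Mthfd2*, and 0.54 each with *Psat1* and *Shmt2*. *Ddit3*, *Asns* and *Chac1* thus followed *Atf4* less closely in these libraries than a great number of other genes did. The value of *Chac1* rests on an estimated 69 to 152 fragments per library.

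Upstream of *Atf4*, none of 13 genes for the eIF2 alpha kinases, eIF2B and the phosphatase that reverses the phosphorylation passed the test. Of all genes tested 10.9% did, so that 0 of 13 is no result about this list. Its median log2 fold change was 0.03. The smallest p belonged to *Eif2b2*, a subunit of the exchange factor eIF2B, with a log2 fold change of 0.27 (limma adjusted p = 0.086). The 4 kinases *Eif2ak1*, *Eif2ak2*, *Eif2ak3* and *Eif2ak4* had log2 fold changes of 0.00, 0.02, -0.02 and -0.06. Among 9 tested dimer partners and relatives of ATF4, 1 fell and none rose, against 5.18% lower and 5.74% higher of all genes tested. This was *Nfe2l1*, a factor that drives proteasome genes, at 37.3 ± 2.50 FPKM in Mock and 31.2 ± 0.912 FPKM in Quinpirole (log2 fold change -0.25, limma adjusted p = 0.0383). After the length correction its log2 fold change was -0.24 and it no longer passed (adjusted p = 0.0575), nor did it in any of the 6 fits with a library left out. *Atf5*, which responds to the same signal as *Atf4*, had a log2 fold change of 0.09 (limma adjusted p = 0.116), and 0.00 after the length correction.

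Downstream, 1 of 13 other stress targets of ATF4 passed, which is no larger a share than the 10.9% of all genes. *Eif4ebp1*, the translation repressor that binds eIF4E, was at 58.0, 59.5 and 60.9 FPKM in Mock and at 72.6, 77.4 and 76.0 FPKM in Quinpirole. The groups were well apart, and *Eif4ebp1* rose with a log2 fold change of 0.33 (SE 0.04, limma adjusted p = 0.0225). It passed also after the length correction (0.25, adjusted p = 0.0275) and in 2 of the 6 fits with a library left out. *Gdf15*, a secreted stress factor, had a log2 fold change of 0.19 (limma adjusted p = 0.079), or 0.09 after the length correction (adjusted p = 0.397), and *Ddit4*, an inhibitor of mTORC1, had -0.15 (limma adjusted p = 0.0899). *Ddit4* passed as lower after the length correction (-0.25, adjusted p = 0.0311), as did 257 of 12223 genes. The whole list had a median of 0.05, against 0.02 over all genes, and *Fgf21* was listed at 0 in 5 of the 6 libraries.

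None of 7 tested amino acid transporters passed, against 10.9% of all genes, with a median of -0.00. *Slc3a2*, the heavy chain shared by several transporters, had the smallest p, with a log2 fold change of 0.32 (limma adjusted p = 0.0895), or 0.18 without Quinpirole 1. *Slc7a11*, the cystine carrier that ATF4 and NRF2 both induce, was below the level for testing at 0.434 to 0.50 FPKM. Of 20 cytosolic aminoacyl-tRNA synthetases, which load tRNAs and many of which are ATF4 targets, 2 rose and none fell, close to the 10.9% of all genes that passed in either direction. They were *Sars*, which loads serine, with a log2 fold change of 0.18 (limma adjusted p = 0.0251) and *Gars*, which loads glycine, with 0.17 (limma adjusted p = 0.0352). The means of 17 of the 20 were higher in Quinpirole, against 53.8% of all genes. The median was 0.08, against 0.02 over all genes, or 0.09 after the length correction. In that correction *Sars* alone passed (adjusted p = 0.0345), where 4.38% of all genes did. With quantile normalization none of the 20 passed, where 783 of 12255 genes did.

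Of 27 tested genes of glycine cleavage, serine use and folate metabolism, 2 rose and none fell, against 5.74% higher and 5.18% lower of all genes, with a median of 0.05, against 0.02. *Tyms*, which makes thymidylate from a folate one-carbon unit, had a log2 fold change of 0.22 (limma adjusted p = 0.0446), and *Atic*, a late enzyme of purine synthesis, had 0.16 (limma adjusted p = 0.049). After the length correction both passed, and so did *Sfxn1*, a mitochondrial serine transporter (0.24, adjusted p = 0.0435). In that fit 278 of 12223 genes passed as higher. *Aldh1l2* of the same list went the other way without passing, with a log2 fold change of -0.23 (limma adjusted p = 0.0622). It was at -0.17 after the length correction (adjusted p = 0.164). In the parallel branches of the unfolded protein response under *Xbp1* and *Atf6*, 3 of 21 rose and none fell, against the same shares of all genes, with a median of 0.03. *Sec61b*, a translocon subunit, had a log2 fold change of 0.28 (limma adjusted p = 0.0251), *Derl1*, which serves degradation, had 0.20 (limma adjusted p = 0.0251), and *Pdia3*, a disulfide isomerase, had 0.16 (limma adjusted p = 0.0376). *Atf6* itself went the other way without passing, with a log2 fold change of -0.16 (limma adjusted p = 0.0731). The means of 13 of the 21 were higher in Quinpirole. After the length correction none of the 21 passed, against 4.38% of all genes. Under quantile normalization 2 of the 21 passed as higher, against 283 of 12255 genes. They were *Sec61b* (limma adjusted p = 0.0385) and *Derl1* (limma adjusted p = 0.0493).

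**Figure D4:**
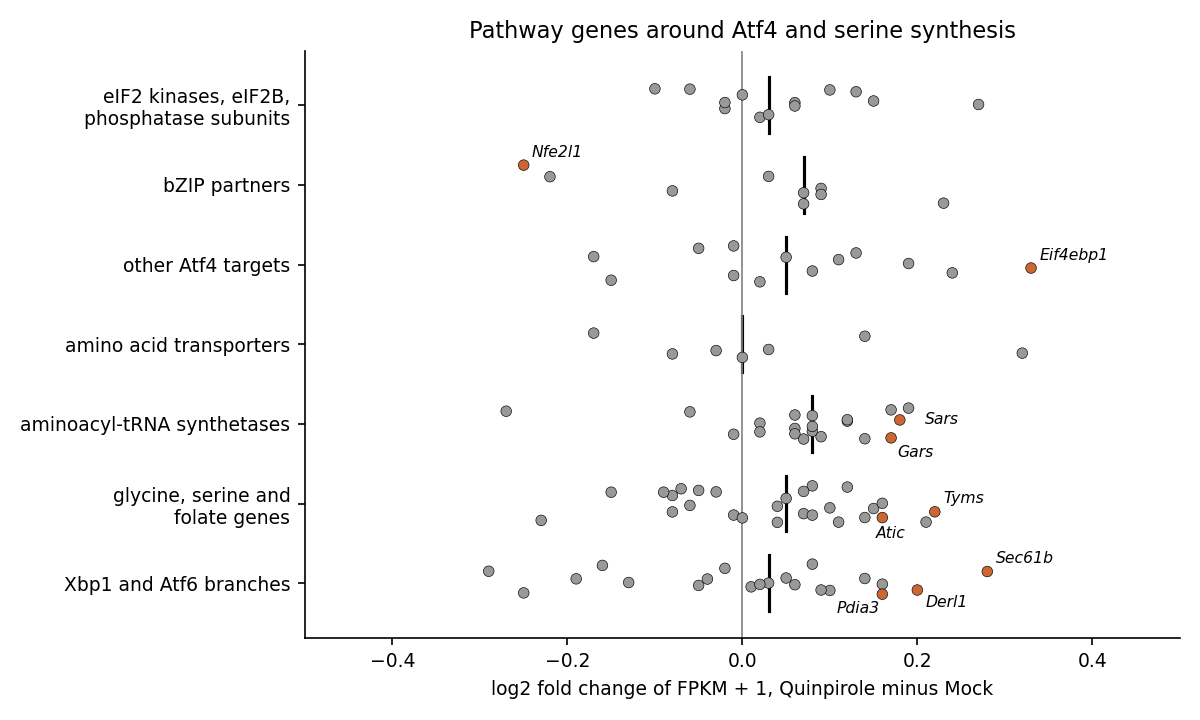
Log2 fold change of FPKM + 1 between Quinpirole and Mock (horizontal axis) of the tested genes in 7 lists around *Atf4* and serine synthesis, with 1 point per gene, named and orange where the limma adjusted p was under 0.05, and a black bar at each list's median. The medians lie between -0.00 and 0.08, and the vertical scatter within a list carries no value.

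The preparation was checked against marker genes. All 10 astrocyte markers were detected above 1 FPKM, with sums of 1489 to 1650 FPKM in Mock and 1478 to 1508 FPKM in Quinpirole, and 2 of the 10 fell, against 5.18% of all genes, *Slc1a2* (log2 fold change -0.42, limma adjusted p = 0.0297) and *Atp1b2* (-0.19, limma adjusted p = 0.0382). After the length correction *Slc1a2* was at -0.26 and no longer passed (adjusted p = 0.0575). Passing as lower was then 1 of the 10, against 257 of 12223 genes. Under quantile normalization 4 of the 10 passed as lower, against 500 of 12255 genes. The neuronal genes *Snap25* and *Rbfox3* and the oligodendrocyte genes *Mog*, *Mobp* and *Mag* were at or near 0, and 4 of 5 endothelial markers were under 1 FPKM. The sum of neuron markers, carried by *Stmn2* (limma adjusted p = 0.0322) and *Tubb3*, was 70.6 to 76.0 FPKM in Mock and 82.5 to 89.0 FPKM in Quinpirole. The sum of mural cell markers was 4794 to 5127 FPKM in Mock and 5146 to 5506 FPKM in Quinpirole, almost all of it from *Acta2* and *Tagln*, with *Pdgfrb* lower (-0.30, limma adjusted p = 0.0227) and *Kcnj8* near 0. In both groups the mural sum was far above the astrocyte sum. Among the astrocyte markers *Gfap* was at 482 to 560 FPKM and *Slc1a2* at only 5.15 to 8.55 FPKM. These levels alone do not show how pure the preparation was. Oligodendrocyte precursor markers were low, at 2.24 to 2.92 FPKM in Mock and 1.84 to 2.05 FPKM in Quinpirole in sum, oligodendrocyte markers summed to 156 to 176 FPKM in Mock and 163 to 173 FPKM in Quinpirole, nearly all from *Cnp*, and ependymal markers to 137 to 152 FPKM in Mock and 138 to 146 FPKM in Quinpirole, mostly from *Foxj1*. None of 7 early response genes of tissue dissociation passed, against 10.9% of all genes, and their median log2 fold change was 0.04. The smallest p belonged to *Nr4a1*, at 5.06, 5.47 and 4.43 FPKM in Mock and at 7.17, 5.79 and 6.72 FPKM in Quinpirole. Its groups stood apart, with a log2 fold change of 0.34 (limma adjusted p = 0.0603), or 0.29 after the length correction (adjusted p = 0.12). After the length correction *Acta2* and *Tagln* had log2 fold changes of 0.02 each, down from 0.11 each. Summed over all genes, FPKM was also higher in each Quinpirole library, at 425244 to 437164 against 401769 to 413730 in Mock. Neuron and mural sums and this total thus moved in the direction of *Phgdh*, and their part in its difference was not tested. In such bulk samples fewer cells of a type and less RNA per cell cannot be told apart.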

How the data were processed

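RNA sequencing of 6 libraries, 3 Mock and 3 Quinpirole, grouped by the treatment in the labels, was analysed. Libraries were made with a poly-A selecting NEBNext Ultra kit, and the authors mapped paired-end reads with TopHat2, keeping reads with at most 1 mismatch. The submitters' processing notes name GRCm38. The deposited values are FPKM, 1 per gene and library, and the program and annotation behind them are not given in the sources used here. Counts were not used here. From the steps between low FPKM values, library sizes of 22300000 to 27500000 fragments were estimated, with 60.2% to 71.1% of low values within 0.1 of a whole number of fragments, so counting errors derived from them are approximate.

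Gene identifiers were matched to symbols for 17090 of 17193 genes. Positions, exonic lengths, overlaps and shared 50-base words came from GENCODE M21 on GRCm38, and promoter windows from RefSeq. Genes with a mean of at least 1 FPKM were tested on log2(FPKM + 1) with limma 3.58.1 in R 4.3.3 (moderated by a mean-variance trend, two-sided, Benjamini-Hochberg adjustment over all genes tested, threshold 0.05), after the code had been tested on simulated data. The pseudocount of 1 understates changes of genes as low as *Trib3* and *Chac1*. Length and GC corrections subtracted a loess curve with span 0.3 from each library. The 10 genes and the pathway and marker lists were chosen with earlier results of these data known. The microglia marker list is not reported here. The text names the 10 genes, at most 4 genes of each pathway list with the smallest p along with listed genes near 0, and the 3 genes with the highest correlation to *Atf4* and to *Phgdh*. The kinases, *Atf5*, *Sfxn1* and *Slc7a11* are named beside them for their role or their call under the length correction. Alternatives covered pseudocount, filter, scaling, variance model, replicate number, gene length, GC content and each library left out in turn.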

Additional observations from a re-analysis of the deposited data

How the results depend on the processing

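Of 152 values of the 9 tested genes under 17 alternatives, 133 had the sign and the call of the design as fitted, 10 lost the call, all of them *Phgdh*, 9 changed sign, and no other gene of the 9 passed under any alternative. *Phgdh* passed in 7 of 17 alternatives, with log2 fold changes from 0.09 to 0.22 and adjusted p from 0.0223 to 0.152. Sign changes were limited to genes far from the threshold: *Psat1* was at -0.03 under quantile normalization and between -0.02 and 0.06 with a library left out, *Ddit3* was at -0.07 after the length correction, with and without the replicate block, and between -0.05 and 0.08 with a library left out, and *Chac1* was between -0.16 and 0.15 with a library left out.

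The number of these genes past the threshold was 0 under quantile normalization, the replicate block, a variance model without trend, and the length correction with or without the block, and ranged from 0 to 1 with a library left out. Their median log2 fold change was 0.04 under quantile normalization, 0.03 after the length correction and 0.03 after the length correction with the block, and ranged from 0.03 to 0.12 with a library left out. Among all genes 1339 passed as designed, 633 without the filter, 783 under quantile normalization, 714 without the trend, 535 after the length correction, and from 3 (without Mock 2) to 1215 (without Mock 3) with a library left out. Higher genes made up 52.6% of the calls as designed, 36.1% under quantile normalization and 41.0% without the trend. With the replicate number as a block 2 of all genes passed, and 0 did so with the block and the length correction together, where limma gave 2738 genes an unadjusted p under 0.05. *Phgdh* had a log2 fold change of 0.20 with the block (adjusted p = 0.0906). Deviations from the group mean had correlations of 0.026, -0.066 and -0.10 between same-numbered libraries, and of -0.097 to 0.15 between the others. The labels do not say whether same-numbered libraries were prepared together. With 3 libraries per group these correlations cannot settle it.

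None of the list genes past the threshold changed sign under the alternatives they were run in. With a library left out, *Nfe2l1*, *Gars*, *Tyms* and *Atic* passed in 0 of 6 fits, *Sars*, *Derl1* and *Pdia3* in 1, and *Eif4ebp1* and *Sec61b* in 2. Of the marker genes, *Atp1b2* passed in 0 of 6 such fits, and *Slc1a2*, *Stmn2* and *Pdgfrb* in 1 each. The cause of these shifts was not tested. With 3 libraries per group and no counts, changes well under the interval widths given for *Trib3*, *Chac1* and *Mthfd2* were not detectable.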

Other observations

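Quinpirole 1 stood apart from the other libraries for a pair of pathway genes, which were singled out after their values were seen. *Slc3a2*, the transporter heavy chain, was at 114, 112 and 115 FPKM in Mock and at 173, 128 and 130 FPKM in Quinpirole. *Wars*, which loads tryptophan onto its tRNA, was at 33.1, 33.9 and 33.6 FPKM in Mock and at 19.4, 32.7 and 33.4 FPKM in Quinpirole (log2 fold change -0.27, SE 0.18, limma adjusted p = 0.362). The other 19 synthetases had log2 fold changes between -0.06 and 0.19. None of the 10 genes of the report showed such a gap for Quinpirole 1.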
